A study of Rattus norvegicus with 25 samples.

Results

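The sarcomere and Z-disc genes, chosen with earlier results of these data known, are 35 listed genes for the proteins of the contractile unit of striated muscle. They were taken from the table by gene symbol, with fast and slow fibre isoforms kept apart. Of these, 33 were found among the 30214 genes of the table, and all 33 passed the filter on low values that left 16062 genes for comparison. Ttn (titin, the giant spring that runs from Z-disc to M-band) and Tcap (telethonin, its cap at the Z-disc) had no row under those symbols and are named only. The genes were measured by RNA sequencing of gingiva from 25 rats, 1 library per rat and 5 rats in each of 5 groups. All were wild type Sprague-Dawley rats given as 6 weeks old in the labels, while the methods of the study give a higher age. The Cur/ZNP gel, ZNP gel and Cur gel groups had experimental periodontitis and then received a methylcellulose hydrogel with curcumin and zinc oxide nanoparticles (ZNPs), with ZNPs alone or with curcumin alone. Rats got 200 μL of gel in the pockets around the ligated teeth once a week for 4 weeks, beginning about a month after the ligature. The EP group had experimental periodontitis without a drug gel, and whether these rats received the empty hydrogel is not stated in the sources used here. Periodontitis was set up by tying silk around the upper first molars on both sides and smearing Porphyromonas gingivalis onto it. The sham group was the healthy control and was given the hydrogel without a drug. A limit of the model is that the whole gingiva was extracted, so that every cell in the piece of tissue contributed RNA.

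In a sarcomere, thin filaments of actin are anchored at the Z-disc and slide past thick filaments of myosin, which are held together in the middle by the M-band. Calcium that binds to troponin C moves troponin and tropomyosin on the thin filament and lets myosin pull. Fast and slow muscle fibres use different genes for troponin, the myosin light chains and several Z-disc proteins, so the ratio of such genes within a sample follows the kinds of fibres in it. Gingiva is a stratified epithelium over connective tissue, and its own resident cells are not skeletal muscle fibres.

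Short letter patterns known from muscle promoters were searched before the start sites of the members, and the stretches that hold them are shown as a description of these genes. Whether the patterns bear on the levels in these libraries was not tested. RefSeq gave a promoter in the GRCr8 assembly for 26 of the 33 members, and the 250 bases before the first listed start were searched on both strands. Tnnt3, Tnnc1, Mylpf, Myl2, Myom2, Myot and Mylk2 had no entry. The MEF2 pattern, which binds the muscle transcription factors of the MEF2 family, was found in 5 of 26 members (19.2%), against 3.07% of 27457 genes. The CArG box, bound by serum response factor, was found in 3 of 26 members (11.5%), against 1.5% of all genes. The E-box CAGCTG was found in 5 of 26 members (19.2%), against 11.9% of all genes, and TATAAA on the gene strand in 3 of 26 (11.5%), against 8.38%. The E-box carriers were Acta1, Des, Mybpc1, Mylk4 and Myoz2, and the TATAAA carriers were Acta1, Mybpc1 and Tnnt1. TATAAA letters can fall inside a MEF2 pattern, but no matches of different patterns overlapped in the members. A match is a description of letters and not of a bound site. The last 100 bases before the start are given 5′ to 3′ on the gene strand for the 8 members with a CArG or MEF2 match, in capitals where the pattern lies. They come from Acta1 at chr19:68784195-68784294 (-), Ldb3 at chr16:9924680-9924779 (-), Myl3 at chr8:119616994-119617093 (+), Myoz1 at chr15:3693513-3693612 (+), Myoz2 at chr2:213852779-213852878 (-), Myom3 at chr5:153276206-153276305 (+), Xirp1 at chr8:128635012-128635111 (-) and Xirp2 at chr3:72534086-72534185 (+) of GRCr8.
Acta1: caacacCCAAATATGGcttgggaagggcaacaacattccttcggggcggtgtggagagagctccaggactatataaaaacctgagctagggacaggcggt
Ldb3: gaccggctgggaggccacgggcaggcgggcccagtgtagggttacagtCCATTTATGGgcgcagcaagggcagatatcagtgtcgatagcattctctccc
Myl3: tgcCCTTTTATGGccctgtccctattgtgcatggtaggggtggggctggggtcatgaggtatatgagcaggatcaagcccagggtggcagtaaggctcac
Myoz1: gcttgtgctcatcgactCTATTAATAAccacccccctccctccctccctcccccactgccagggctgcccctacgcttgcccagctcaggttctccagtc
Myoz2: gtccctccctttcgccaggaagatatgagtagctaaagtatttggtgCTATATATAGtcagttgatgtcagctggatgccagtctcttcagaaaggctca
Myom3: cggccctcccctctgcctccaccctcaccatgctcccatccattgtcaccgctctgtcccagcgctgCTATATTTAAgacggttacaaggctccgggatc
Xirp1: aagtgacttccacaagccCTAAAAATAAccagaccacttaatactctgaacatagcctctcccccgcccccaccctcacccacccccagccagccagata
Xirp2: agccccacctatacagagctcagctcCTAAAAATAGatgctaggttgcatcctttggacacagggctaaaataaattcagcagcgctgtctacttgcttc
In the first 3 of these the capitals are a CArG box, and in the others a MEF2 pattern. The CArG box of Acta1, the skeletal muscle actin, ended 85 bases before its start and was followed by a TATAAA that ended 24 bases before it.

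Libraries held 50690789 to 81791804 counted reads, with a median of 62227570. EP 3, EP 4 and Sham 4 stood apart in that genes of nasal gland proteins, such as odorant-binding proteins, made up 16.6%, 20.5% and 21.8% of their reads, while no other library exceeded 0.103%. Keratinocyte genes, which mark the labelled tissue, took 0.119% of the reads in Sham 4 and 0.377% to 3.81% in the other 24 libraries, and fibroblast genes took 0.134% to 0.971%. Salivary gland genes took 0.00319% to 15.8% of the reads. Across all 16062 genes, 3018 passed as higher in EP and 3021 as lower (limma adjusted p under 0.05), and with libraries scaled by total reads instead, 1211 were higher and 1861 lower.

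The members together took 2.72, 1.36, 0.697, 2.96 and 4.36% of the reads in Cur/ZNP gel libraries 1 to 5, 1.64, 0.633, 1.15, 2.22 and 4.08% in ZNP gel, 0.159, 3.23, 1.95, 0.0640 and 3.36% in Cur gel, 2.96, 2.54, 0.442, 0.907 and 1.74% in EP and 0.797, 0.320, 0.418, 0.0395 and 0.103% in sham. Sham 4 and 5 and Cur gel 1 and 4 were the lowest, and no sham library reached 1%. EP 3, EP 4, ZNP gel 2 and Cur/ZNP gel 3 were below 1% as well. Sham 1 lay above EP 3, ZNP gel 2 and Cur/ZNP gel 3, so the groups overlapped in this share. In Cur gel the 5 rats fell into 3 high and 2 low libraries, and within this group the highest library of a member exceeded the lowest by a median of 225-fold over the 32 members above 0 in all 5, against 4.77-fold in EP. Cur gel 4 was the lowest library, ties at 0 included, for 23 of 33 members, and Cur gel 5 was among the 5 highest for all 33. Fewer muscle cells and less of these transcripts in each cell cannot be told apart in bulk RNA. The map of the members by library shows this order of the libraries across nearly every gene.

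**Figure D1:**
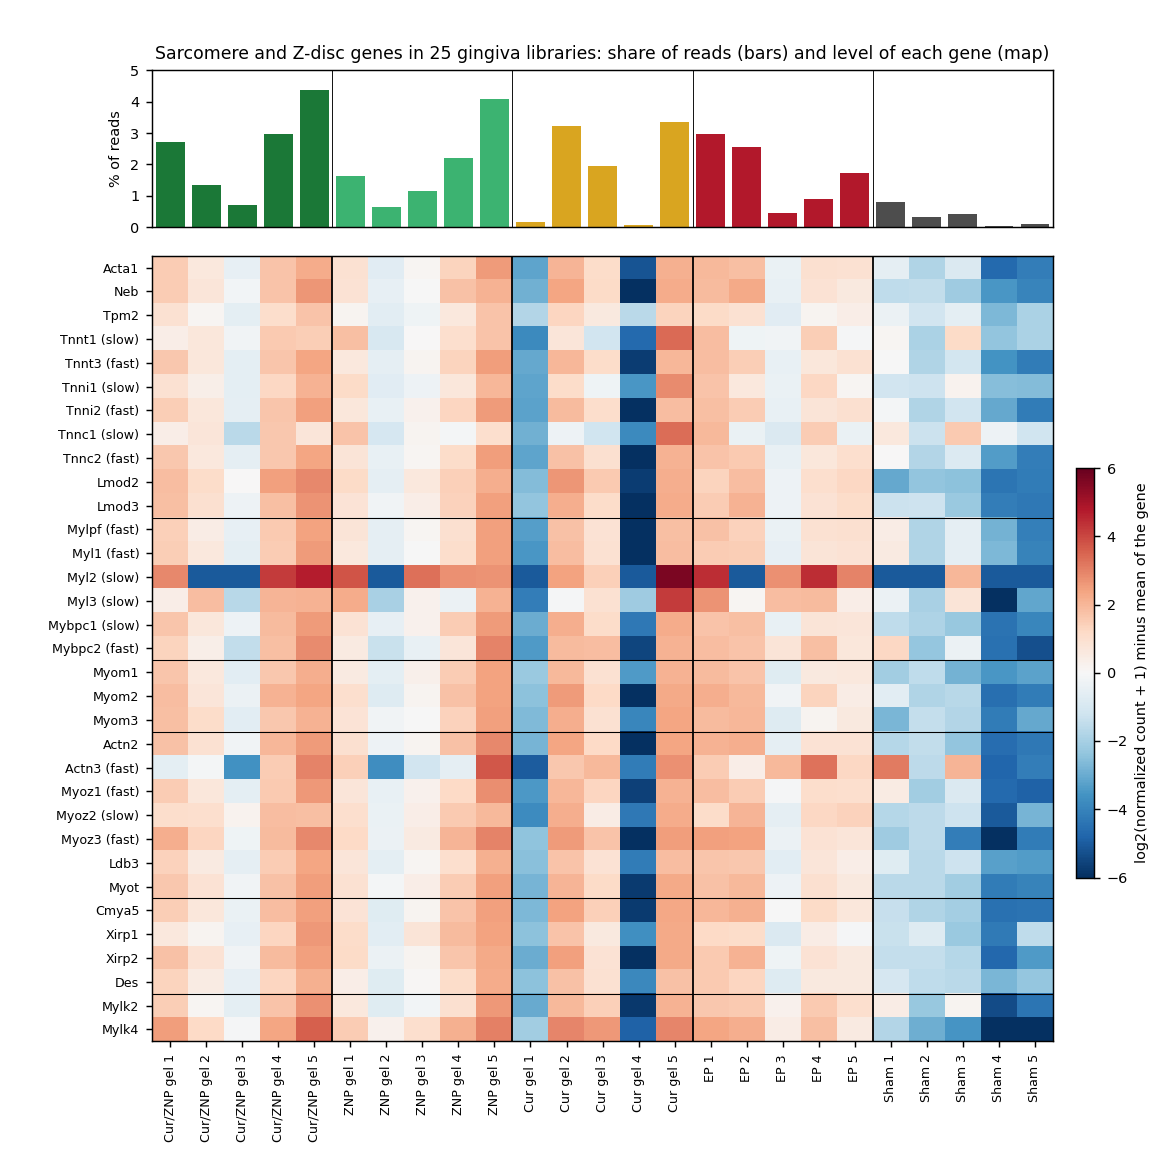
Share of reads taken by the 33 members (bars, percent of each library's reads) and level of each member (map, log2 of the normalized count + 1 minus the mean of the gene over 25 libraries, with the most extreme values sharing the darkest colours), by group and rat. Sham 4, Sham 5, Cur gel 1 and Cur gel 4 are blue for almost every gene, and Myl2, Myl3, Tnnc1 and Actn3 break from the common pattern.

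Over the 25 libraries the members followed one another closely. The Pearson correlation of a member's log2 level with the mean of the other 32 had a median of 0.971 and exceeded 0.9 for 28 of 33 members, given as a description since all share the size factor of each library. With the group means removed the median was 0.961. The genes least like the rest were Tnnc1 (r = 0.684), Myl2 (0.711), Actn3 (0.776), Myl3 (0.812) and Tnnt1 (0.862), of which 4 are slow fibre genes and Actn3 is a fast fibre gene. The gene most like the rest was Acta1 (r = 0.995). The highest library exceeded the lowest by 21.4-fold for Tpm2, the narrowest range, and by 1267-fold for Myom2, the widest among members above 0 in all libraries.

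Experimental periodontitis was compared with sham to ask which genes differ in the diseased gingiva. Among the 33 members, 25 were higher in EP and 0 were lower (limma, Benjamini-Hochberg adjusted p under 0.05 over 16062 genes), where 18.8% of all genes tested were called higher and 18.8% lower. Without adjustment 30 had p under 0.05. The log2 fold change was above 0 for all 33, from 0.50 for Tnnc1 to 6.75 for Mylk4, with a median of 3.48, against a median of 0.01 over all genes tested. In 17 of 33 every EP library lay above every sham library, against 8.07% of all genes. All 17 members that were listed as neither fast nor slow passed, with 5 of the 9 listed as fast and 3 of the 7 listed as slow. The 8 that did not pass were the slow fibre genes Tnnt1, Tnni1, Tnnc1 and Myl2 and the fast fibre genes Tnnc2, Mylpf, Myl1 and Actn3. The count fell to 11 without Sham 4, 13 without Sham 5, 13 without EP 1 and 12 without EP 2, was 9 without the nasal-rich libraries Sham 4, EP 3 and EP 4 together, and was 12 with scaling by total reads. Genes that passed without each of the 10 libraries in turn were Lmod2, Mybpc1, Myom1, Myom3, Actn2, Myoz2, Myoz3, Myot, Cmya5 and Mylk4.

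On the thin filament, 7 of 11 members were higher in EP. Acta1, the skeletal muscle alpha-actin (chr19:56674074-56677084, Rnor_6.0, minus strand), had 426205, 391581, 86303, 220063 and 211775 normalized counts (reads divided by the size factor of the library) in EP rats 1 to 5, against 76469, 31963, 61816, 4447 and 6310.5 in sham rats 1 to 5. The lowest EP library, EP 3, was above the highest sham library, Sham 1. Its log2 fold change, on the scale of log2(normalized count + 1), was 3.45 (SE 1.15, limma adjusted p = 0.0223). Tpm2, the beta-tropomyosin of striated muscle that smooth muscle also expresses, had 172184, 143907, 47526, 85877 and 102311 in EP, against 61273, 34891, 51839, 11974 and 20806 in sham. EP 3 lay below Sham 1 and Sham 3, and the log2 fold change was 1.71 (SE 0.63, limma adjusted p = 0.037). Neb (nebulin, a ruler of thin filament length), Lmod2 and Lmod3 (leiomodins, which start actin filaments) also passed, and none overlapped with sham. Neb had 20573 to 136085 normalized counts in EP, against 1782 to 10210.1 in sham, with a log2 fold change of 3.55 (SE 1.16, limma adjusted p = 0.0196). Lmod2 had 1275 to 5689.8 normalized counts in EP, against 73.2 to 300.5 in sham, with a log2 fold change of 4.33 (SE 1.11, limma adjusted p = 0.00462), and Lmod3 had 1008 to 5145 normalized counts in EP, against 60.9 to 517 in sham, with 3.69 (SE 1.24, limma adjusted p = 0.0232).

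Among the troponins, which carry the calcium switch, Tnnt3 and Tnni2 passed and the other 4 did not. Tnnt3, the fast troponin T that ties the complex to tropomyosin, had 207511, 162514, 42318, 93321 and 110971 normalized counts in EP, against 56629.5, 16825, 27271, 4897 and 3194 in sham. Only EP 3 fell below the highest sham library, Sham 1, and the log2 fold change was 3.03 (SE 1.15, limma adjusted p = 0.0426). Tnnt1, its slow counterpart, had 1294, 297, 306, 1019 and 345 in EP, against 389, 95.1, 795, 69.1 and 97.3 in sham. Here Sham 3 exceeded EP 2, EP 3 and EP 5, and the log2 fold change of 1.53 (SE 1.08, limma adjusted p = 0.273) did not pass. Tnni2, the fast inhibitory subunit, had 107467, 88861, 23017, 52450.2 and 61490.3 in EP, against 28916, 8849.9, 14019.5, 3732 and 1702 in sham. EP 3 again lay under Sham 1, and the log2 fold change was 2.98 (SE 1.16, limma adjusted p = 0.0464). Tnni1, the slow inhibitory subunit, had 1248, 579, 282, 900.3 and 413 in EP, against 171, 160.0, 441, 63.0 and 61.9 in sham. EP 3 and EP 5 lay under Sham 3, and the log2 fold change of 2.12 (SE 0.92, limma adjusted p = 0.0745) did not pass. Tnnc2, the fast calcium-binding subunit, had 114966, 104130, 25417, 56881 and 70234 in EP, against 36093, 10493, 19987, 3372 and 1986 in sham. With EP 3 below Sham 1, its log2 fold change of 2.91 (SE 1.17, limma adjusted p = 0.054) missed the threshold by little. Tnnc1, the troponin C of slow fibres and the heart, had 726, 143, 103, 547 and 140.2 in EP, against 290.0, 74.7, 549, 150.4 and 80.6 in sham. Only EP 1 exceeded every sham library, and the log2 fold change of 0.50 (SE 0.99, limma adjusted p = 0.717) was the smallest of all members.

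Among the myosin light chains and myosin-binding proteins, 3 of 6 members were higher in EP. Mylpf, the fast regulatory light chain, had 108903, 84412, 24294, 60638 and 62263 normalized counts in EP, against 44305, 9223, 22177, 4563 and 1889 in sham. Sham 1 exceeded EP 3, and the log2 fold change was 2.68 (SE 1.16, limma adjusted p = 0.0733). Myl1, the fast essential light chain, had 97118, 95562, 24438, 57805 and 61462 in EP, against 48764, 9793, 23406, 5187 and 2140.2 in sham. Its overlap was again between EP 3 and Sham 1, and the log2 fold change of 2.53 (SE 1.18, limma adjusted p = 0.0936) did not pass. Myl2, the regulatory light chain of slow fibres and the ventricle, had 703, 0, 221, 699.7 and 254 in EP, against 0, 0, 128, 0 and 0 in sham. It was at 0 reads in 10 of the 25 libraries and at 88.0 or more in the others, where 3 reads would have given 2.28 to 6.10 normalized counts in the libraries at 0. Its fitted log2 fold change was 5.54 (SE 2.50, limma adjusted p = 0.0851), a value that depends on the added count because 4 of 5 sham libraries were at 0. Myl3, the essential light chain of slow fibres and the ventricle, had 1749, 294, 988, 1026 and 360.4 in EP, against 212, 70.2, 467, 0 and 30.5 in sham. EP 2 and EP 5 lay under Sham 3, Sham 4 was at 0, and the log2 fold change was 3.94 (SE 1.44, limma adjusted p = 0.0351). Mybpc1, listed as slow after its name as the slow form of myosin-binding protein C, had 89627, 94134, 20211, 46152 and 44787 in EP, against 9369.9, 7542, 5633, 1276 and 1807 in sham. The groups did not overlap, and the log2 fold change was 3.71 (SE 1.02, limma adjusted p = 0.00748). Its correlation with the mean of the other members was 0.983, against 0.684 to 0.862 for the slow genes Tnnc1, Myl2, Myl3 and Tnnt1. The slow genes Tnni1 (0.952) and Myoz2 (0.961) were closer to it. Whether the Mybpc1 reads came from slow fibres was not tested. Mybpc2, the fast form, had 18034, 16405, 8511, 17694 and 7928 in EP, against 11730.0, 997, 3970.4, 224 and 128 in sham. Sham 1 exceeded EP 3 and EP 5, and the log2 fold change was 3.60 (SE 1.37, limma adjusted p = 0.0424).

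At the M-band, the myomesins Myom1, Myom2 and Myom3, which cross-link the thick filaments, were all higher in EP without overlap. Myom1 had 2349 to 14446 normalized counts in EP, against 344 to 1364 in sham, with a log2 fold change of 3.44 (SE 0.88, limma adjusted p = 0.0045). Myom2 had 3528 to 18423 normalized counts in EP, against 175 to 2612 in sham, with 3.70 (SE 1.36, limma adjusted p = 0.0357), and Myom3 had 1279.7 to 8569.6 normalized counts in EP, against 116 to 808 in sham, with 3.42 (SE 0.98, limma adjusted p = 0.00926). At the Z-disc, 6 of 7 members were higher. Actn2, the alpha-actinin that cross-links actin in all fibre types, had 46174, 47767, 7288, 19458 and 19396 normalized counts in EP, against 3284, 3891, 2042, 451 and 550.3 in sham. All EP libraries lay above all sham libraries, and the log2 fold change was 3.97 (SE 1.26, limma adjusted p = 0.0169). Actn3, the alpha-actinin of fast fibres alone, had 6093, 2806, 8118, 20357 and 5010.4 in EP, against 18683, 715, 8672, 77.2 and 118 in sham. Sham 1 exceeded 4 of 5 EP libraries, and the log2 fold change of 2.74 (SE 1.73, limma adjusted p = 0.218) did not pass. Myoz1, the fast calsarcin that holds calcineurin at the Z-disc, had 23544, 18491, 6040.4, 13551 and 12751 in EP, against 8921, 1490.0, 3509, 252 and 223 in sham. Only EP 3 lay under Sham 1, and the log2 fold change was 3.48 (SE 1.24, limma adjusted p = 0.032). Myoz2, the calsarcin of slow fibres and the heart, had 1933, 3637, 624, 2158 and 2321 in EP, against 272, 299, 379, 26.4 and 131 in sham. The groups did not overlap, and the log2 fold change was 3.52 (SE 1.03, limma adjusted p = 0.0108). Myoz3, the other fast calsarcin, averaged 1765 ± 1310.5 in EP and 78.9 ± 81.9 in sham (SD, n = 5 each), with a log2 fold change of 5.0 (SE 1.29, limma adjusted p = 0.00491). Ldb3 and Myot, adaptor proteins that bind alpha-actinin, were higher without overlap. Ldb3 had 6518 to 31672 normalized counts in EP, against 1002 to 6170.3 in sham, with a log2 fold change of 2.78 (SE 0.94, limma adjusted p = 0.0234), and Myot had 982 to 4602 normalized counts in EP, against 65.0 to 398 in sham, with 3.69 (SE 1.11, limma adjusted p = 0.0125).

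Of the proteins that link the Z-disc to the membrane and to other filaments, 4 of 4 were higher. Des, the desmin of the intermediate filaments around the Z-disc, which smooth muscle also expresses, had 59459, 49269, 11871, 29956 and 29869 normalized counts in EP, against 10006, 6934, 6615, 2943 and 3965 in sham. All EP libraries were above all sham libraries, and the log2 fold change was 2.50 (SE 0.87, limma adjusted p = 0.0273). Xirp2, a Xin repeat protein that binds actin where the filaments meet the membrane, had 27442, 38718, 7730.2, 16885 and 14051 in EP, against 3377, 3406, 2845, 349.6 and 883 in sham. EP 3 was more than any sham library here as well, and the log2 fold change was 3.51 (SE 1.20, limma adjusted p = 0.0259). Xirp1, the related Xin protein, and Cmya5, a large desmin and alpha-actinin partner also called myospryn, were higher as well. Xirp1 had 605 to 2507 normalized counts in EP, against 56.9 to 645 in sham, which overlap, with a log2 fold change of 2.40 (SE 0.94, limma adjusted p = 0.0485), and Cmya5 had 16096 to 71556 normalized counts in EP, against 736 to 6405 in sham, with 4.00 (SE 1.17, limma adjusted p = 0.0106). Both myosin light chain kinases passed. Mylk2, the skeletal muscle kinase that phosphorylates the regulatory light chain, averaged 6058 ± 2072 in EP and 1357 ± 1566 in sham (SD, n = 5 each) and had a log2 fold change of 3.49 (SE 1.29, limma adjusted p = 0.0375). Mylk4, a less studied kinase of the family, had 2812, 2482, 734, 1924 and 797 in EP, against 162, 71.1, 45.9, 0 and 0 in sham. The groups did not overlap, 2 sham libraries were at 0, and the ratio of the group means was 31.3. Its fitted log2 fold change of 6.75 (SE 1.45, limma adjusted p = 0.00141) was the largest of all members and moved between 5.78 and 7.15 with an added count of 5 and 0.5. The table counted Mylk4 at 2 places on chromosome 17 of Rnor_6.0, 33028293 to 33045690 and 32082937 to 32100166, with close values in most libraries, so reads may have been split or shared between copies and its level is uncertain.

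**Figure D2:**
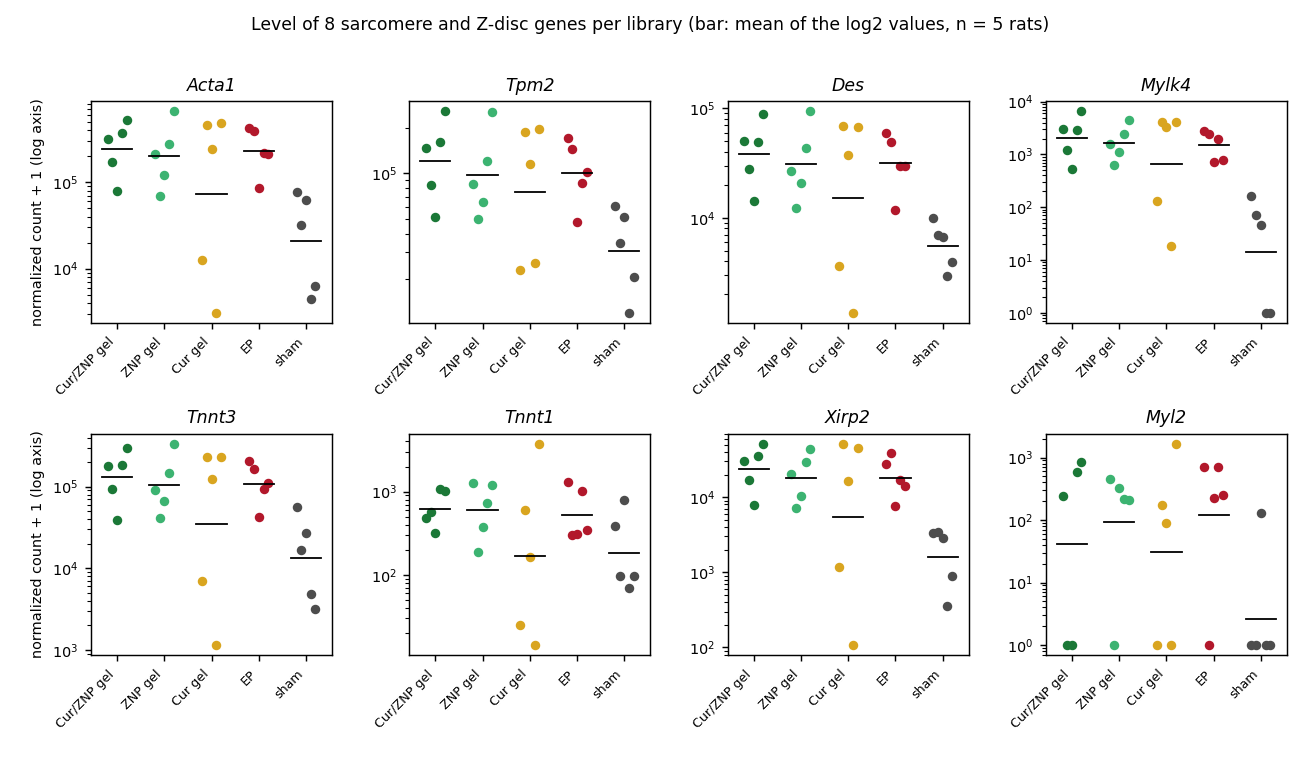
Level of 8 members in each library (normalized count + 1, log axis) by group, with the mean of the log2 values as a bar (n = 5 rats). EP, ZNP gel and Cur/ZNP gel libraries lie above sham for Des, Mylk4 and Xirp2, the 5 Cur gel libraries fall into high and low ones, and Tnnt1 and Myl2 overlap between all groups.

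The 3 gel groups were set against the same 5 sham rats as EP, so the 4 comparisons are not independent. In Cur/ZNP gel, 24 of 33 members rose and 0 fell (29 had an unadjusted p under 0.05), against 20.2% of all genes called higher and 19.4% lower, with a median log2 fold change of 3.52. In ZNP gel, 19 of 33 were higher and 0 lower (27 unadjusted), against 16.7% of all genes higher and 15.4% lower, with a median of 3.25. In Cur gel, 4 of 33 were higher and 0 lower (6 unadjusted), against 19.0% of all genes higher and 19.0% lower, with a median of 1.74. Every library of the gel group lay above every sham library for 18 members in Cur/ZNP gel (9.51% of all genes), 16 in ZNP gel (7.04%) and 0 in Cur gel (8.84%). With scaling by total reads the calls over all genes were 2724 higher and 686 lower in Cur/ZNP gel, 2056 and 431 in ZNP gel, and 2378 and 741 in Cur gel, against 3245 and 3121, 2680 and 2470, and 3046 and 3057 with the size factors. The 4 called in Cur gel were Mylk4 (5.57), Myoz3 (3.45), Lmod2 (2.92) and Myom1 (2.50), each a log2 fold change. Without Cur gel 4 the Cur gel count was 23 and without Cur gel 1 it was 8, while it was 1 without Sham 3, Sham 4, Sham 5, Cur gel 2, Cur gel 3 or Cur gel 5, and on the recovered reads edgeR called 19 (18.1% of all genes higher) and DESeq2 25 (21.0%). In ZNP gel the count was 10 without Sham 4, 11 without Sham 5, 12 without ZNP gel 1, 11 without ZNP gel 4 and 9 without ZNP gel 5, and in Cur/ZNP gel it was 15 without Sham 4.

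**Figure D3:**
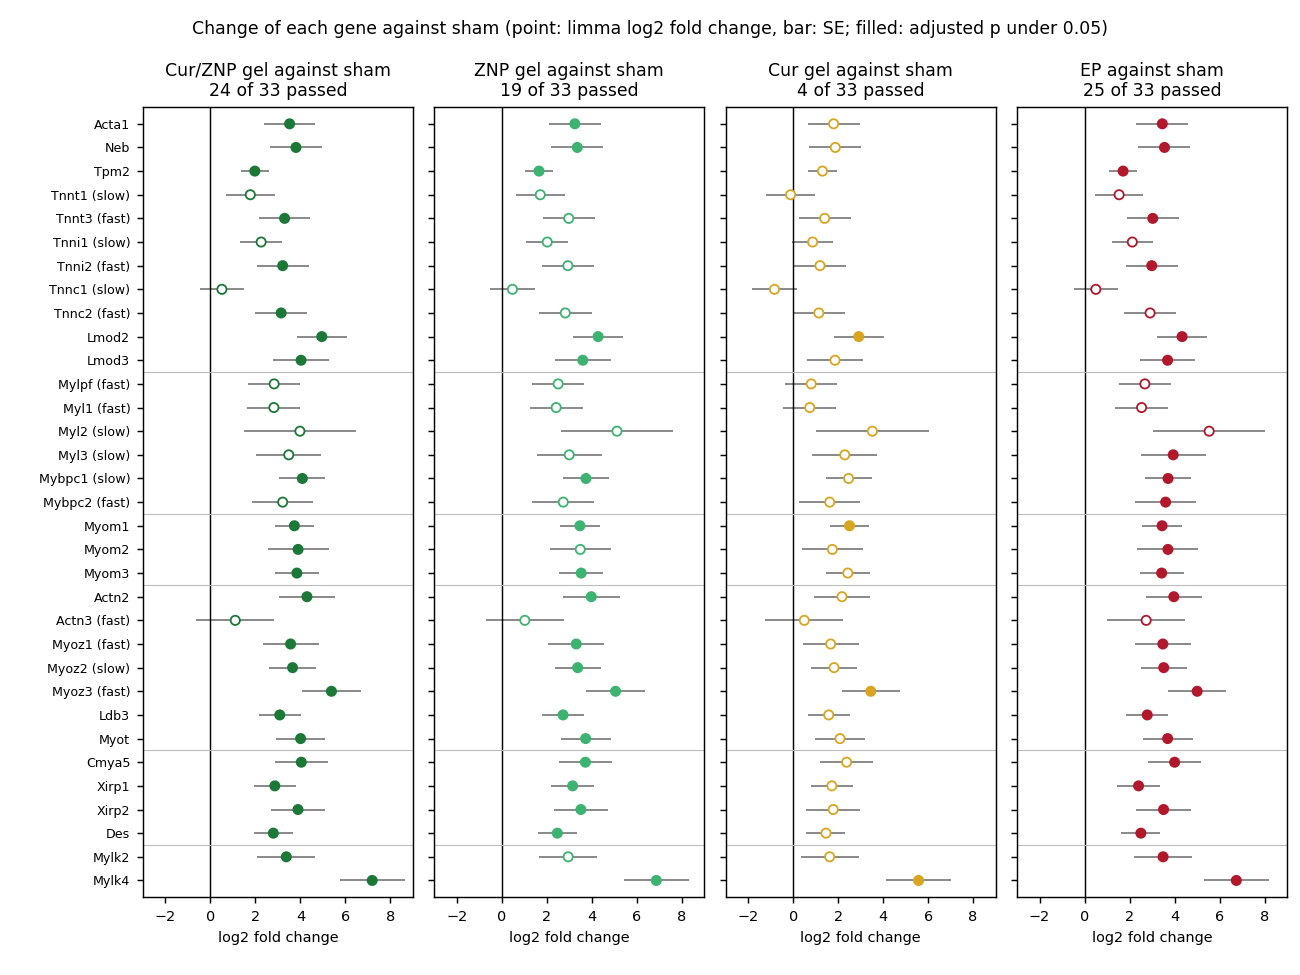
Log2 fold change of each member against sham (points, with SE as bars) in Cur/ZNP gel, ZNP gel, Cur gel and EP, from one limma fit, filled where the adjusted p was under 0.05, with fast and slow fibre genes marked. Members lie to the right of 0 in each panel, except Tnnt1 and Tnnc1 in Cur gel, and 24, 19, 4 and 25 are filled.

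By role, the thin filament had 8 of 11 members higher in Cur/ZNP gel, 5 in ZNP gel and 1 in Cur gel. Acta1 had 320170, 171146, 78381, 369923 and 530779 normalized counts in Cur/ZNP gel rats 1 to 5, 211722, 69838, 120547, 278250 and 660405 in ZNP gel and 12652, 465980, 241587, 3080.3 and 487595 in Cur gel, beside the sham values given above. ZNP gel 2 was just under Sham 1, Cur gel 1 lay within the sham range and Cur gel 4 below it. Tpm2 had 146356, 83504, 51388, 160897 and 256393 in Cur/ZNP gel, 85608, 50278, 64584, 120240 and 254768 in ZNP gel and 22858, 188930, 114943, 25542 and 196681 in Cur gel. Its lowest libraries in each gel group overlapped with sham, and the log2 fold changes were 1.97, 1.65 and 1.30, of which the first 2 passed. Tnnt3 had 181264, 94374, 39364, 183275 and 302139 in Cur/ZNP gel, 91843, 40804, 66280.2, 146583 and 336150 in ZNP gel and 6892, 230295, 123590, 1141 and 230943 in Cur gel. It was higher in Cur/ZNP gel (limma adjusted p = 0.0273) and did not pass in ZNP gel (limma adjusted p = 0.052). Tnnt1 had 481, 574, 314, 1073 and 1018 in Cur/ZNP gel, 1257, 186, 370.2, 732 and 1199.8 in ZNP gel and 24.3, 605, 164, 13.4 and 3752 in Cur gel, where Cur gel 5 was the highest of all 25 libraries and Cur gel 4 the lowest. Tnni2 had 88003, 49113, 21305, 98000.0 and 172656 in Cur/ZNP gel, 49984, 23214, 37525, 76075 and 181679 in ZNP gel and 3353, 117582, 64643, 488 and 112759 in Cur gel. Tnni1 had 708, 481, 246, 896 and 1605 in Cur/ZNP gel, 843, 234, 301, 603 and 1484 in ZNP gel and 41.1, 819, 317, 32.1 and 2688 in Cur gel. Of these inhibitory subunits the fast one passed in Cur/ZNP gel (limma adjusted p = 0.0317) and the slow one in no gel. Tnnc2 had 108222, 53547, 23943, 107587 and 182883 in Cur/ZNP gel, 60696, 25394, 37884, 76206 and 201058 in ZNP gel and 3943, 118618, 68360.3, 554 and 147027 in Cur gel. Tnnc1 had 250.5, 312, 61.0, 573 and 310.5 in Cur/ZNP gel, 605, 92.5, 207, 173 and 372 in ZNP gel and 24.3, 151, 82.0, 12.5 and 1929 in Cur gel. The slow gene was above the sham range only in Cur/ZNP gel 4, ZNP gel 1 and Cur gel 5 and below it in Cur/ZNP gel 3 and Cur gel 1 and 4, while the fast gene passed in Cur/ZNP gel (limma adjusted p = 0.0369).

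Of the light chains and myosin-binding proteins, Mybpc1 alone passed, with both ZNP-containing gels. It had 85405, 43747, 21790.3, 101331 and 157827 normalized counts in Cur/ZNP gel, 49119, 19624, 32789.6, 77344 and 159498 in ZNP gel and 3488, 125072, 59048, 1397 and 129052 in Cur gel. Its log2 fold changes were 4.09, 3.74 and, not past the threshold, 2.46 in Cur gel. Mybpc2 had 12702, 6405, 1806, 17333 and 36062 in Cur/ZNP gel, 7139, 1979.6, 3717, 8386 and 39298 in ZNP gel and 468, 18740.0, 18274, 109.5 and 20964 in Cur gel, overlapping with sham in each. Mylpf had 88083, 43848, 22829.6, 95606 and 169705 in Cur/ZNP gel, 54573, 21877, 35241, 61919 and 175343 in ZNP gel and 3315, 108978, 59259, 506 and 114506 in Cur gel. Myl1 had 95114, 52133, 22811, 97002 and 199219 in Cur/ZNP gel, 52164, 22992, 33051, 71381 and 189913 in ZNP gel and 3028, 121963, 64746, 543 and 121257 in Cur gel. Both fast light chains followed the same rats, with ZNP gel 5 and Cur/ZNP gel 5 at the top and Cur gel 4 at the bottom. Myl2 had 244, 0, 0, 595 and 860.1 in Cur/ZNP gel, 448, 0, 322, 216 and 209 in ZNP gel and 0, 173, 88.0, 0 and 1664 in Cur gel. Myl3 had 354, 978, 86.0, 1132 and 1137 in Cur/ZNP gel, 1262, 70.1, 327, 213 and 1151 in ZNP gel and 14.5, 259.6, 507, 60.6 and 4978 in Cur gel. For both slow light chains Cur gel 5 was the highest of the 25 libraries, and for Myl2 each gel group had at least 1 library at 0.

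The Z-disc had 6 of 7 members higher in Cur/ZNP gel, 6 in ZNP gel and 1, Myoz3, in Cur gel, and Actn3 was the exception in the first 2 comparisons. Actn2 had 36596, 20250.1, 9277, 42777 and 63689.5 normalized counts in Cur/ZNP gel, 20774, 8709, 12083, 36086 and 79861 in ZNP gel and 1549, 55638, 24817, 101 and 54795 in Cur gel. Actn3 had 1421, 1959, 171, 6206 and 16641 in Cur/ZNP gel, 5791, 161, 968, 1464 and 27981 in ZNP gel and 67.0, 6474, 8155, 115 and 14219.5 in Cur gel. The fast alpha-actinin lay within the sham range in all gel libraries except ZNP gel 5, above it, and Cur gel 1, below it, with log2 fold changes of 1.10, 1.02 and 0.49 that did not pass. Myoz1 had 18415, 10314, 4326, 18998 and 39254 in Cur/ZNP gel, 10765, 4682, 7669.8, 14847 and 44279 in ZNP gel and 584, 25284, 15828, 132 and 27171 in Cur gel. Myoz2 had 1846, 1802, 1036, 3256 and 3132 in Cur/ZNP gel, 1807, 686, 1189, 2643 and 3427 in ZNP gel and 63.9, 4048, 1217, 44.5 and 4154 in Cur gel. For Myoz2 all Cur/ZNP gel and ZNP gel libraries lay above all sham libraries, and for Myoz1 the lowest of each lay below Sham 1. The linking proteins were higher in 4 of 4 cases with each ZNP-containing gel and in 0 with Cur gel. Des had 50075, 27948, 14099, 49565 and 88150.3 in Cur/ZNP gel, 26504, 12271, 20989.5, 43116 and 93658 in ZNP gel and 3605, 68288, 37197, 1354 and 67061 in Cur gel. Xirp2 had 30752, 16870.4, 7971, 34906 and 50828 in Cur/ZNP gel, 20513, 7189, 10240.1, 29720.3 and 43982 in ZNP gel and 1157, 51505, 16599, 106 and 45299 in Cur gel. Both were above every sham library in all rats of the gels with ZNPs and in Cur gel 2, 3 and 5. Mylk4 had 3084, 1231, 524, 2850.4 and 6515 in Cur/ZNP gel, 1587, 643, 1109, 2414 and 4405 in ZNP gel and 129, 4110.2, 3269.8, 17.8 and 4127 in Cur gel. It was the member that passed in Cur gel in each of 10 fits that left out 1 library, while Cur gel 1 and 4 stayed within the sham range.

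Each gel was then compared with untreated periodontitis to ask whether the treatment changed the gene. None of the 33 members passed limma in Cur/ZNP gel, ZNP gel or Cur gel against EP, and 0 had an unadjusted p under 0.05 in any of the 3, with 0 also called by edgeR and by DESeq2. Over all genes limma called 0% in either direction except 0.00623% lower in ZNP gel, edgeR called 0%, and DESeq2 called 1.26% in Cur/ZNP gel, 0.380% in ZNP gel and 0.492% in Cur gel. The median log2 fold change was 0.25 in Cur/ZNP gel, -0.06 in ZNP gel and -1.65 in Cur gel. In Cur gel all 33 were under EP by the mean of the log2 values, from -2.25 to -0.41, whereas the ratio of the plain means was 0.685 to 1.40, with a median of 0.987, and above 1 for 13 of 33. The low libraries Cur gel 1 and 4 weigh more on the log2 scale. For Acta1 the 95% interval of the log2 difference from EP was -2.32 to 2.45 for the combined gel, -2.59 to 2.18 for ZNPs alone and -4.04 to 0.73 for curcumin alone. For Mylk4 the intervals were -2.56 to 3.46, -2.89 to 3.13 and -4.18 to 1.84 in the same gels. The combined gel and the single gels were compared for a difference between formulations. Again 0 of 33 members passed limma between any 2 of the 3 gels, 0 had an unadjusted p under 0.05, and edgeR and DESeq2 called 0, while over all genes limma and edgeR called 0%. DESeq2 called 0.0374% of all genes for Cur/ZNP gel against Cur gel, 0.137% for Cur/ZNP gel against ZNP gel and 0.0436% for ZNP gel against Cur gel. The median log2 fold changes of the members were 1.75, 0.32 and 1.45 in these comparisons. The smallest unadjusted p was that of Lmod2 in Cur/ZNP gel against Cur gel, with a 95% interval of -0.26 to 4.34.

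The ratio of a fast gene to its slow counterpart, or for Actn3 to Actn2 of all fibre types, within a library depends on its size factor only through the added count, which matters where a gene was at 0, and since it was not corrected for transcript length only its differences between libraries are read. It was computed as log2 of (fast + 1) over (slow + 1) for 8 pairs and 10 comparisons, and of these 80 exact permutation tests 4 had a raw p under 0.05 and 0 passed after adjustment (smallest Benjamini-Hochberg adjusted p = 0.635). With 5 against 5 libraries the smallest p such a test can give is 0.00794. Tnnc2/Tnnc1 had log2 ratios of 8.75, 7.42, 8.59, 7.55 and 9.20 in Cur/ZNP gel, 6.65, 8.08, 7.51, 8.77 and 9.07 in ZNP gel and 7.30, 9.50, 7.93, 6.70 and 8.96 in EP, against 6.95, 7.12, 5.18, 4.48 and 4.61 in sham. All 5 Cur/ZNP gel libraries lay above all sham libraries, and in ZNP gel and EP only 1 library each lay below the highest sham value. The difference from sham was 2.63 (exact two-sided permutation p = 0.00794) in Cur/ZNP gel, 2.35 (exact two-sided permutation p = 0.0238) in ZNP gel and 2.41 (exact two-sided permutation p = 0.0317) in EP. In Cur gel, with log2 ratios of 7.28, 9.61, 9.69, 5.36 and 6.25, it was 1.97 (exact two-sided permutation p = 0.0952). Actn3/Actn2 had log2 ratios of -4.69, -3.37, -5.75, -2.78 and -1.94 in Cur/ZNP gel, -1.84, -5.75, -3.64, -4.62 and -1.51 in ZNP gel, -4.51, -3.10, -1.61, 0.19 and -1.95 in Cur gel and -2.92, -4.09, 0.16, 0.07 and -1.95 in EP, against 2.51, -2.44, 2.09, -2.53 and -2.21 in sham. Sham 1 and Sham 3 had the highest values of the 25 libraries. The difference from sham was -3.19 (exact two-sided permutation p = 0.0476) in Cur/ZNP gel and -1.23 (exact two-sided permutation p = 0.437) in EP. Tnnt3/Tnnt1 averaged 7.67 ± 1.03 in EP and 6.18 ± 1.13 in sham (SD, n = 5 each), and Tnni2/Tnni1 averaged 6.62 ± 0.60 in EP and 5.76 ± 1.03 in sham on the log2 scale. Myl1/Myl3, Mybpc2/Mybpc1 and Myoz1/Myoz2 differed between EP and sham by -1.41, -0.11 and -0.04 on the log2 scale, with group SDs of 0.55 to 2.68, and for Myl1/Myl3 Sham 4 rests on a Myl3 of 0. No difference is given for Mylpf/Myl2, since 4 of 5 sham libraries had Myl2 at 0 and the added count sets their ratio.

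**Figure D4:**
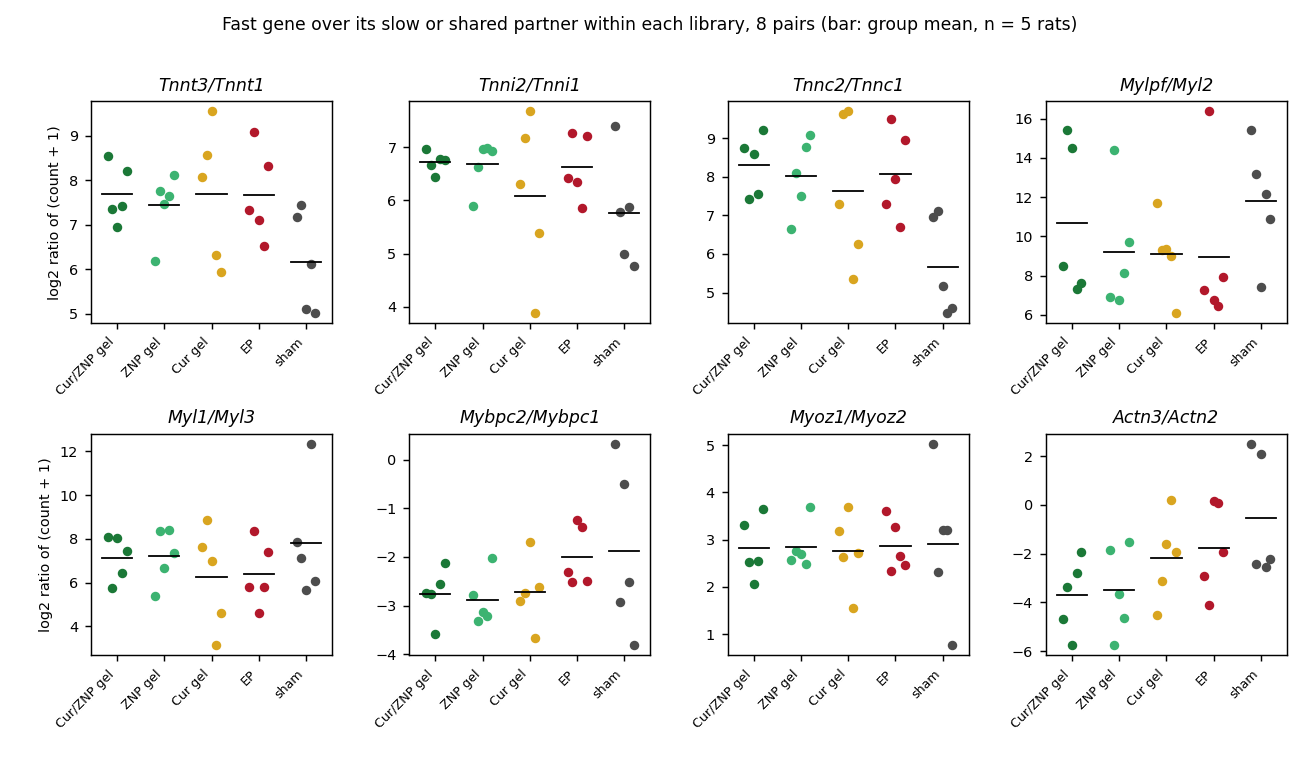
Log2 ratio of a fast gene to its slow counterpart, or of Actn3 to Actn2 of all fibre types (normalized count + 1 of each), in every library for 8 pairs, by group, with the group mean as a bar (n = 5 rats). The mean of Tnnc2/Tnnc1 is lowest in sham, Actn3/Actn2 is highest in 2 sham libraries, and the highest Mylpf/Myl2 values are from libraries with Myl2 at 0.

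Other genes of the sarcomere that are not members were followed from a list of assembly factors and Z-disc partners. Of 31 tested, 22 were higher in EP and 0 lower, with a median log2 fold change of 2.79, and in Cur/ZNP gel, ZNP gel and Cur gel 27, 20 and 4 were higher. Of all genes tested, 18.8% were called higher in EP, and 20.2%, 16.7% and 19.0% in these gels. Pdlim5, a PDZ and LIM protein of the Z-disc, had a log2 fold change of 1.99 (SE 0.37, limma adjusted p = 0.000583) in EP, Obsl1, an obscurin-like linker to the M-band, 0.99 (SE 0.23, limma adjusted p = 0.00239), and Smyd1, a methyltransferase that serves myosin assembly, 5.31 (SE 1.29, limma adjusted p = 0.0033). Pdlim5 and Obsl1 did not follow the members in Cur gel 4, the lowest library for most members. There Obsl1 had 2335 normalized counts, against 604 to 1348 in sham, and Pdlim5 had 2311, against 453 to 2420. Smyd1 had 8.01 in that library, against 14.2 to 192 in sham. Of the cardiac and embryonic paralogs of the members, 2 of 5 tested were higher in EP, Nebl, the cardiac nebulette, with 0.52 (SE 0.19, limma adjusted p = 0.0379) and Actc1, the cardiac actin, with 2.62 (SE 1.02, limma adjusted p = 0.0479), while Myl4, an atrial and embryonic light chain, had 2.16 (SE 0.86, limma adjusted p = 0.0505). The other 2 of this list had log2 fold changes below 0 that did not pass, Tnni3, the cardiac troponin I, with -2.74 (SE 1.11, limma adjusted p = 0.0549) and Tnnt2, the cardiac troponin T, with -0.88 (SE 0.45, limma adjusted p = 0.126), and both passed as lower in each of the 3 gel groups. Nebl had 870 normalized counts in Cur gel 1 and 698 in Cur gel 4, against 274 to 530 in sham. It did not follow the members there, since both libraries were among the lowest for most members. Among other skeletal muscle fibre genes, 7 of 9 tested were higher in EP with a median of 3.33, led by Ryr1, the calcium release channel, at 3.53 (SE 1.11, limma adjusted p = 0.016), Chrna1, the muscle acetylcholine receptor, at 3.95 (SE 1.28, limma adjusted p = 0.0194) and Pygm, the muscle glycogen phosphorylase, at 3.54 (SE 1.18, limma adjusted p = 0.0221).

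Markers of other cells in the tissue were compared with sham as well, and their part in the result was not tested. Of all genes, limma called 18.8% higher and 18.8% lower in EP, and 20.2% and 19.4% in Cur/ZNP gel. In ZNP gel these shares were 16.7% and 15.4%, and in Cur gel 19.0% and 19.0%. Smooth muscle genes, which share Des and Tpm2 with the members, gave 0 of 8 calls in EP (1 at an unadjusted p under 0.05, limma), with a median log2 fold change of 0.49. The smallest p-values were those of Lmod1 (0.85, adjusted p = 0.0532), Acta2 (0.64, adjusted p = 0.183) and Actg2 (0.55, adjusted p = 0.326), each value here being a log2 fold change with limma's adjusted p. The list took 0.0606% to 0.216% of the reads in EP and 0.0280% to 0.260% in sham, and 3 of its genes passed as higher in Cur/ZNP gel, 0 in ZNP gel and 4 in Cur gel. Of the 9 keratinocyte genes 3 were lower in EP, Tp63 (-1.29, adjusted p = 0.0163), Krt5 (-1.68, adjusted p = 0.023) and Dsg3 (-1.15, adjusted p = 0.0488), while Krt4 (2.03, adjusted p = 0.0516) and Krt13 (1.24, adjusted p = 0.112) had values above 0 that did not pass. The list took 0.377% to 2.91% of the reads in EP and 0.119% to 3.81% in sham, and 2 of its genes passed as higher and 2 as lower in Cur/ZNP gel, 2 and 0 in ZNP gel, and 1 and 1 in Cur gel. Of 5 fibroblast genes Dcn was higher (0.59, adjusted p = 0.0323), while Lum (0.24, adjusted p = 0.407) and Col3a1 (0.34, adjusted p = 0.41) did not pass. In Cur/ZNP gel 4 of these 5 genes were higher, all 4 without overlap with sham (9.51% of all genes), and in ZNP gel and Cur gel 1 each. The nasal gland list gave 0 of 5 calls, with Obp2a (2.93, adjusted p = 0.361), Obp2b (2.94, adjusted p = 0.376) and Obp1f (2.68, adjusted p = 0.428) first, and the salivary gland list 0 of 4, with Muc5b (2.95, adjusted p = 0.295), Gp2 (2.35, adjusted p = 0.33) and Bpifb2 (2.43, adjusted p = 0.394) first, and 0 of either had an unadjusted p under 0.05 in limma. Salivary gland genes took 6.11% to 15.8% of the reads in Cur gel and 0.00319% to 4.42% in sham. Genes of autonomic neurons were lower in EP for 6 of 7, with the smallest p for Chrna3, Vip and Slc5a7 (limma adjusted p = 0.000939, 0.00181 and 0.00221). That list took 0.0806% of the reads in Sham 1, 0.138% in Sham 3 and 0.0286% in Sham 4, but 0.000937% in Sham 2 and 0.000505% in Sham 5. It took at most 0.000195% in EP, and 0.0561% in Cur/ZNP gel 2. Sham 1 and Sham 3, which held the most Actn3 in the sham group, also held the most of these transcripts. In the gel groups 5 of the 7 were lower in Cur/ZNP gel, 6 in ZNP gel and 6 in Cur gel.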

How the data were processed

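Gingiva of 25 rats was sequenced from stranded libraries after removal of ribosomal RNA. The deposited table holds signal values, namely read counts per transcript of Rnor_6.0 that the authors scaled with one DESeq2 size factor for each library. The aligner and counter are not given in the sources used here. Every value was a whole multiple of its column's step within 0.01 reads or 0.001% of a high value, which gave back whole reads for 100% of the values. The values of 41078 transcripts, 396 of them without a symbol and kept under their identifier, were summed to 30214 genes, and those that reached 2 CPM in 1 library or more were tested. The length column of the table is a genomic span, so levels were not compared between genes. Since the values carry size factors, limma 3.58.1 (R 4.3.3) with a robust trend was fitted, over the 25 libraries together, to log2(normalized count + 1), with two-sided tests, Benjamini-Hochberg adjustment over 16062 genes and a threshold of 0.05. edgeR 4.0.16 (quasi-likelihood) and DESeq2 1.42.0 on the recovered reads were alternatives, besides other scalings, filters, added counts, left-out libraries and a replicate block. The fit was run on simulated counts drawn independently for each gene, for EP against sham. It recovered 45% of 100 changes of 2-fold and 83% of 100 changes of 4-fold, with 4 false calls among 132. The members are correlated with one another, so these shares need not hold for them. Ratios were tested by enumerating every split of the 10 libraries, two-sided. Values are printed per library for the 8 ratio pairs, Acta1, Tpm2, Des, Mylk4 and Xirp2, and of each further list the 3 genes with the smallest p are named. The members and lists were chosen with earlier results of these data known.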

Additional observations from a re-analysis of the deposited data

Results flagged for a closer look

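There were 165 groups of 5 values, from 33 members in 5 groups. In 3 of them a library stood apart from the other 4 by more than Dixon's critical value of 0.71. That value flags about 1 in 20 groups of independent normal values. The members are correlated and some values are 0, so this rate does not apply here. All 3 concern Myl2, the slow regulatory light chain. In sham it had 128 normalized counts in Sham 3, against 0 in the other 4 libraries, so the zeros alone set the gap to the whole range. In EP it had 0 in EP 2, and the nearest library had 221, and in ZNP gel it had 0 in ZNP gel 2, with 209 in the nearest.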

How the results depend on the processing

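No fold change of a member between EP and sham turned its sign under any alternative, and 0 members were called in any comparison among EP and the gels under all of them, which at this spread says little about smaller differences. For the number of members called against sham, leaving out 1 library gave 15 to 29 of 33 in Cur/ZNP gel (24 with all libraries), 9 to 22 in ZNP gel (19), 1 to 23 in Cur gel (4) and 11 to 26 in EP (25). Without Sham 4, EP 3 and EP 4 the counts were 14 for Cur/ZNP gel, 7 for ZNP gel, 1 for Cur gel and 9 for EP, which also left fewer rats to fit. Scaling by total reads gave 12 in EP and 2 in Cur gel, and moved the median log2 fold change of all genes to 0.15 for Cur/ZNP gel, 0.20 for ZNP gel, 0.15 for Cur gel and -0.12 for EP. For Cur gel the count was also 2 without a filter, 0 with the 2 groups alone, 19 with edgeR under either TMM or RLE factors and 25 with DESeq2. The cause was not tested. Libraries with the same rat number were not regularly alike, with same-number correlations from -0.39 to 0.51 over the 10 comparisons. At most 3 of 5 libraries were best matched to their own number, in Cur/ZNP gel against EP. These correlations cannot tell whether the numbers mark a shared handling of the rats. A fit with the replicate block left 22 of the 25 EP calls.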

Other observations

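One transcript described in the table as titin-cap, under another symbol than Tcap, lies outside the selection and was looked at after the members' values were seen. It had 216, 134, 35.2, 54.2 and 185 normalized counts in EP, against 24.3, 0, 30.2, 0 and 0 in sham, and 0 in Cur gel 4.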
